A study of Mus musculus with 20 samples.

Results

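Immediate early genes are switched on within minutes of a stimulus from factors that already lie in the cell, and 10 of them were followed here in tumor cells sorted from prostate cancer bone metastasis: Fos, Fosb, Jun, Junb, Egr1, Atf3, Klf4, Ier2, Ier3 and Dusp1. They were taken by symbol and Entrez identifier from a given list and not by a rule on their values. The list was drawn up with earlier results of these data known. All 10 were present among the 13850 genes listed in all 3 deposited tables. The cells were MycCaP-Bo, a Myc-driven mouse prostate cancer line from the HiMyc strain that carries iRFP and luciferase and was selected in mice for growth in bone. The line was injected into the heart of male FVB/N mice aged 4 to 6 weeks, and CD45- iRFP+ cells were sorted from the hind legs after grinding and enzymatic digestion, with the cells of 3 mice pooled in each library. Every group had 5 libraries. Naive tumors received vehicle, Resist tumors received enzalutamide (a drug used against prostate cancer) at 30 mg per kg daily for 18 days, Resist-Mac tumors received the same with intravenous liposomal clodronate (which depletes macrophages), given at 1 mg per mouse in the last 4 days, and Naive-Mac tumors received vehicle with the same clodronate for 4 days. All groups thus share 1 cell line, its Myc transgene, the mouse strain and the sort, and no group was processed without sorting.

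Fos, Fosb, Jun and Junb code for subunits of AP-1, a dimer that binds DNA and is built from a Fos or a Jun partner. Egr1, Atf3 and Klf4 code for other DNA-binding factors, Ier2 for a nuclear regulator, Ier3 for a small protein that modulates survival and MAP kinase signaling, and Dusp1 for a phosphatase that switches MAP kinases off. These genes answer to growth factors and cytokines through MAP kinases, the serum response factor SRF and CREB, and they are also known to rise while tissue is digested and sorted. All 20 libraries were sorted, so levels present in the mouse and levels reached during isolation cannot be told apart.

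The start of several of these genes carries the TGACG core that CREB and ATF factors bind. RefSeq promoter sequence (build GRCm38.p6, which is not the mm9 build named in the processing notes and was used for sequence alone) was matched for 8 of the 10 genes, Egr1 and Ier2 being the exceptions. The windows below belong to the 5 genes with TGACG nearest the start. Each ends at the base before the annotated start site and has matches to TGACG on either strand, and to TATAAA, in capitals. Most span 120 bases, and that of Dusp1 spans 160 so as to hold its match. Klf4 has its match farther upstream, and Jun and Ier3 have none.

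Fos, chr12:85473770-85473889, plus strand: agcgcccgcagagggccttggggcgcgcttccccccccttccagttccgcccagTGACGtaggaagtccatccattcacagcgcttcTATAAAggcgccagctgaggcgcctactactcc

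Fosb, chr7:19310046-19310165, minus strand: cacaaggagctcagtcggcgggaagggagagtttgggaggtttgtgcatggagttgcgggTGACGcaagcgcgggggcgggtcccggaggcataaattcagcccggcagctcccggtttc

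Junb, chr8:84978749-84978868, minus strand: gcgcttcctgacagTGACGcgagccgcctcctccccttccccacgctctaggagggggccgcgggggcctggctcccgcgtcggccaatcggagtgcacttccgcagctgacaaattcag

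Atf3, chr1:191183334-191183453, minus strand: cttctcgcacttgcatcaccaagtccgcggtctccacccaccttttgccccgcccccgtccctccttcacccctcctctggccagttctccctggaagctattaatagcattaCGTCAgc

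Dusp1, chr17:26508473-26508632, minus strand: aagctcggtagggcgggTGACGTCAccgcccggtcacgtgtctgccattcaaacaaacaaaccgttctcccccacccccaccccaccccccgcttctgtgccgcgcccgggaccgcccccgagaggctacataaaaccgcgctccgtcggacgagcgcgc

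Within the 250 bases before the start, TGACG in either orientation was found in 6 of the 8 matched genes (Fos, Fosb, Junb, Atf3, Klf4 and Dusp1) and in 17.77% of all 32851 promoters in the table. The full palindrome TGACGTCA, which contains TGACG on both strands, was found in Dusp1 alone of the 8 and in 1.546% of all promoters. The AP-1 motif TGANTCA was in none of the 8 against 6.749% of all promoters, the CArG box of SRF in none against 1.467%, and TATAAA in Fos against 12.37%. These matches are letters in a window and were not tied to any binding measurement. Sequence farther upstream was not searched, so a motif missing from the window, such as the CArG box, may lie outside it.

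Fos (Entrez 14281) varied most from library to library with the groups pooled (SD 0.64 log2) and in Naive (1.00). The member with the widest SD was Klf4 in Resist (0.56), Ier3 in Resist-Mac (0.48) and Atf3 in Naive-Mac (0.65). FPKM is a level per length and per library. Fos read 312, 567, 190, 993 and 211 FPKM in the 5 Naive libraries, and 1075, 1164, 546, 554 and 909 in Resist. The Resist-Mac libraries read 518, 451, 565, 480 and 415, and the Naive-Mac libraries 80.4, 243, 168, 126 and 120. Resist was highest and Naive-Mac lowest by group mean, the Naive libraries overlapped all other groups with a 5.23-fold distance between their lowest and highest, and Resist-Mac was the tightest at 1.36-fold.

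Fosb (14282), the other Fos partner of the list, read 242, 333, 285, 434 and 239 FPKM in Naive and 731, 720, 345, 408 and 454 in Resist. It read 268, 237, 335, 320 and 295 in Resist-Mac against 44.3, 53.1, 51.8, 61.1 and 43.6 in Naive-Mac. All 5 Naive-Mac libraries lay below every other library, whereas Naive and Resist-Mac interleaved and Resist overlapped Naive in 2 libraries. The Jun partners were steadier. Jun (16476) lay between 398 and 603.8 FPKM in Naive, 481 and 551 in Resist, 307 and 580 in Resist-Mac, and 140 and 234 in Naive-Mac, so that only Naive-Mac stood apart. Junb (16477) read 619, 565, 738, 584 and 621 in Naive, and 847, 622, 568, 613 and 565 in Resist. It read 968, 691, 653, 851 and 767 in Resist-Mac and 442, 393, 433, 588 and 380 in Naive-Mac. Resist library 1 exceeded the other 4 of its group, and the highest Naive-Mac library reached into the Naive range.

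Klf4 (16600), a Krüppel-like factor, had the widest distance between groups. It read 82.9, 104, 115, 139 and 77.4 FPKM in Naive, 197, 205, 97.9, 88.4 and 130 in Resist, 76.7, 55.0, 61.4, 80.1 and 72.7 in Resist-Mac, and 8.98, 10.0, 7.94, 12.1 and 10.8 in Naive-Mac. Its best rank among listed genes fell from 344 in Resist to 4540 in Naive-Mac. Egr1 (13653), a zinc finger factor, read 244, 277, 165, 307 and 205 in Naive, 348, 347, 247, 354 and 361 in Resist, 227, 179, 334, 263 and 201 in Resist-Mac, and 29.3, 64.3, 48.8, 52.0 and 48.5 in Naive-Mac. Again Naive-Mac lay apart, and the other 3 groups overlapped. Atf3 (11910), a stress-induced factor, was the exception in its order, being highest in Naive at 588, 518, 811, 559 and 543. It read 511, 500, 290, 322 and 477 in Resist, 460, 329, 250, 498 and 486 in Resist-Mac and 162, 54.3, 108, 170 and 107 in Naive-Mac. Every Resist library was thus below every Naive library, and Resist and Resist-Mac could not be ranked.

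Dusp1 (19252), the phosphatase, was the member that stayed level, with means of 852 ± 72.5 (SD, n = 5) FPKM in Naive, 776 ± 148 in Resist, 854 ± 168 in Resist-Mac and 894 ± 155 in Naive-Mac. All 4 groups overlapped. Ier2 (15936) lay between 308 and 430 in Naive, 309 and 408 in Resist, 416 and 518 in Resist-Mac and 214 and 267 in Naive-Mac, so Resist-Mac was above Resist without overlap. Ier3 (15937) read 106, 99.8, 175, 99.1 and 132 in Naive and 188, 87.3, 74.2, 88.0 and 88.5 in Resist, where library 1 stood above the other 4. It spanned 88.8 to 225 in Resist-Mac and 55.2 to 115 in Naive-Mac, and its groups overlapped throughout. Together the 10 genes held 0.695 to 0.977% of the summed FPKM of a Naive library, 0.732 to 1.10% in Resist, 0.453 to 0.761% in Resist-Mac and 0.185 to 0.287% in Naive-Mac.

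**Figure D1:**
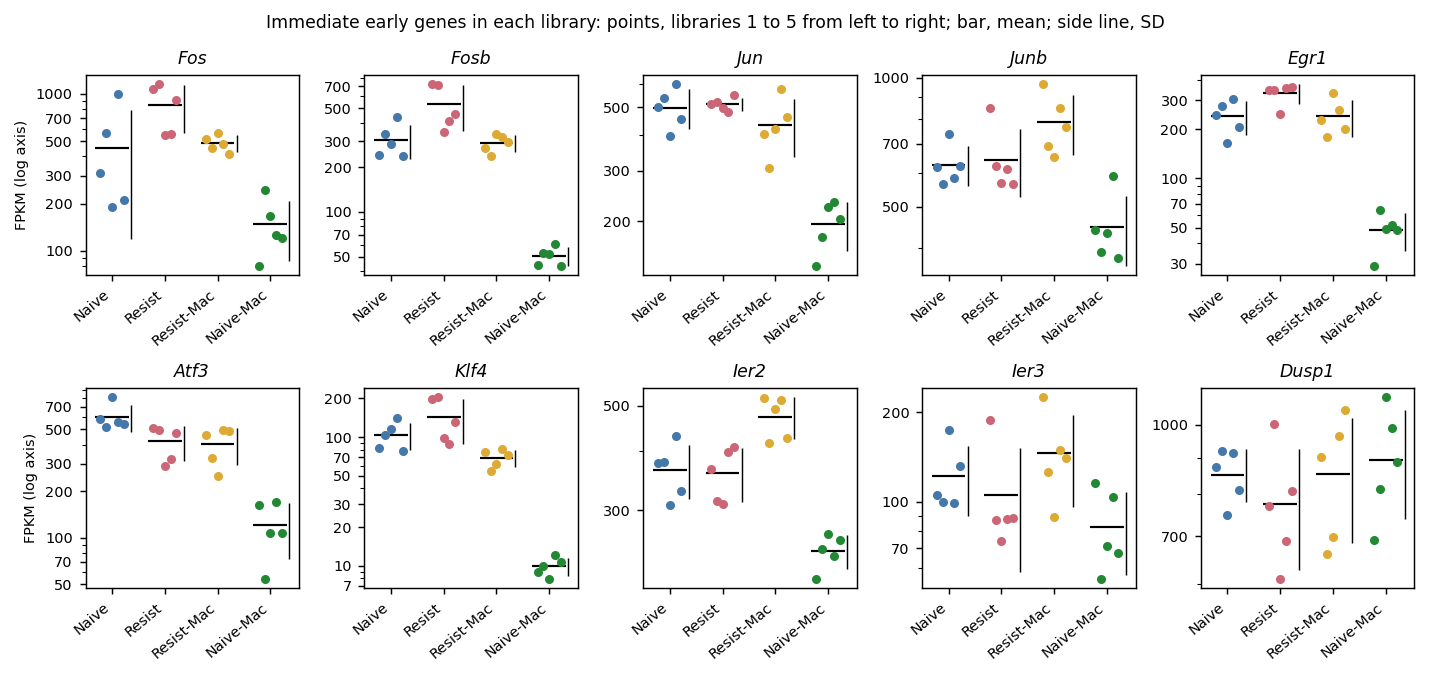
FPKM (log axis) of each of the 10 genes in each library, with points for libraries 1 to 5 of a group from left to right, a bar at the group mean and a line of 1 SD to each side of it. Naive-Mac lies below the other 3 groups without overlap for Fosb, Jun, Egr1, Atf3, Klf4 and Ier2, and Dusp1 is level.

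Some facts of the libraries bear on every value. The tables hold no read counts, so depth was not known and no counting error could be given, and the number of replicates limits precision. Per the labels Naive and Resist were batch 1, Resist-Mac batch 2 and Naive-Mac batch 3, each batch in a table of its own, so in any comparison with a depleted group batch and condition cannot be told apart and no within-batch value could be had. Some reference genes differed between batches too: in Naive vs. Naive-Mac, Polr2a was 2.15 higher and Hprt 1.13 lower on the log2 scale. Of the 7 reference genes 4 were called there (57.1%, against 59.7% of all genes tested). In Resist vs. Resist-Mac 2 were called (28.6% against 21.7%), and in Resist-Mac vs. Naive-Mac 1 (14.3% against 46.2%). Of the defining epithelial and prostate genes, Krt8 was present (mean 107 to 317 FPKM over groups), while Krt18 and Cdh1 stayed at or below 0.23 FPKM in every library. Ptprc, which codes for CD45, was at most 5.35 FPKM. The summed FPKM of 9 neutrophil markers ran from 176 to 1268 in Naive, 61.4 to 602 in Resist, 405 to 8769 in Resist-Mac and 58.6 to 6156 in Naive-Mac, and that of 10 macrophage markers (largely Lyz2, with Adgre1 at most 0.52) from 18.2 to 110, 4.11 to 59.0, 38.4 to 871 and 5.35 to 533. In these pooled cells, fewer expressing cells and less RNA per cell cannot be told apart.

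Enzalutamide treatment was compared within batch 1. In Resist vs. Naive, 1 of the 10 genes was called (adjusted p under 0.05 over all genes and a fold above 1.5 on the log2(FPKM + 1) scale), against 6.35% of the 10119 genes tested, and the median difference of the 10 was 0.041 against 0.033 over all genes. Fosb rose by 0.76 log2 (SE 0.22, adjusted p = 0.0336 by limma), a fold of 1.70, with group means of 532 and 307 FPKM. Fos had the largest difference, 1.12 (SE 0.41), but with the wide Naive spread its adjusted p was 0.0761, and it was not called. Egr1 and Atf3 passed the p threshold without passing the fold: Egr1 was 0.49 higher (adjusted p = 0.0495) and Atf3 0.54 lower (adjusted p = 0.0469), the latter being the 1 member whose groups did not overlap, as 12.8% of all genes did not. For Jun the difference was 0.053 with a 95% interval from -0.16 to 0.27, for Junb 0.030 (from -0.21 to 0.27) and for Ier2 -0.022 (from -0.25 to 0.21). Klf4, Ier3 and Dusp1 had adjusted p of 0.242, 0.441 and 0.380. Of the AP-1 subunits, Fosb was thus called and Jun, Junb and Fos were not. Among all called genes 82.6% were higher in Resist, a share that was 69.3% under quantile normalization and 71.7% under correction for length and GC content.

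The Resist vs. Naive calls hung on single libraries. The Fosb call was lost without Naive library 1 (adjusted p = 0.0821), 2 (0.0533), 3 (0.0676) or 5 (0.0758), and without Resist library 1 (0.0708) or 2 (0.0656), while its difference stayed between 0.63 and 0.90. Without Naive library 4, the one with the highest Fos, Fos was called at 1.47 (adjusted p = 0.0142). Atf3 was called as lower without Resist library 1 (-0.62), 2 (-0.62) or 5 (-0.60), and Egr1 as higher without Resist library 3 (0.59). Under median-ratio scaling the single called gene was Atf3 (-0.59, adjusted p = 0.0409) in place of Fosb (0.72, adjusted p = 0.0501). Correction for length and GC content likewise called Atf3 (-0.60, adjusted p = 0.0350) and not Fosb (0.63, adjusted p = 0.0728), and Fosb was not called with no filter on low genes (adjusted p = 0.0768).

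Macrophage depletion in treated tumors was read in Resist vs. Resist-Mac, where 3 of the 10 genes were called, all higher in Resist, against 21.7% of the 10049 genes tested. Klf4 was 0.97 higher (SE 0.23, adjusted p = 0.00438), Fosb 0.81 (SE 0.20, adjusted p = 0.00659) and Fos 0.74 (SE 0.21, adjusted p = 0.0131). Groups did not overlap for Klf4 and Fosb, nor for Ier2, which was 0.40 lower in Resist (SE 0.11, adjusted p = 0.0111) and short of the fold, and 29.7% of all genes did not overlap. Egr1 was 0.48 higher (adjusted p = 0.0320), below the fold, whereas Jun (0.27), Junb (-0.29), Atf3 (0.062), Ier3 (-0.49) and Dusp1 (-0.14) did not pass the p threshold. The call of Fos was lost when all 4 groups shared one estimate of the spread (adjusted p = 0.0951). Ier3 was called as lower without Resist library 1 (-0.72, adjusted p = 0.0179), and Egr1 as higher without Resist-Mac library 3 (0.61, adjusted p = 0.00655). The signs of Junb, Ier2 and Dusp1 were turned by quantile normalization, and those of the same 3 and Ier3 by correction for length and GC content. Among all called genes 44.8% were higher in Resist, and 54.9% under quantile normalization.

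In vehicle-treated tumors the same depletion went with much larger differences. In Naive vs. Naive-Mac, 6 of the 10 genes were called, all higher in Naive, against 59.7% of the 9837 genes tested, with a median of 1.39 over the 10 and 0.23 over all genes. Klf4 was 3.24 higher (SE 0.16, adjusted p = 1.21e-09), a fold of 9.42. Fosb was 2.55 higher (SE 0.15, adjusted p = 6.90e-09), Atf3 2.40 (SE 0.25, adjusted p = 1.23e-06), Egr1 2.29 (SE 0.20, adjusted p = 1.87e-07), Fos 1.42 (SE 0.41, adjusted p = 0.00648) and Jun 1.35 (SE 0.14, adjusted p = 1.27e-06). By size of difference Klf4 ranked 80 and Fosb 262 among all genes tested. Junb (0.49), Ier2 (0.56) and Ier3 (0.58) passed the p threshold and not the fold, and Dusp1 differed by -0.056 (from -0.30 to 0.19). Groups did not overlap for 6 of the 10, as for 66.0% of all genes.

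At the main setting the share of members called was close to the background in that comparison. The sizes and the calls depended on scale. Median-ratio scaling brought the all-gene median from 0.23 to -0.021 and the share of higher among called genes from 62.9 to 50.0% (48.0% under quantile normalization and 51.3% under correction for length and GC content). The 6 members were called there too, with Klf4 at 2.96, Fosb at 2.26, Atf3 at 2.11, Egr1 at 2.00, Fos at 1.14 and Jun at 1.06, and Dusp1 was then 0.35 lower in Naive (adjusted p = 0.00630). Under quantile normalization Dusp1 turned to 0.98 higher, and all 10 were called. Over all genes 2625 were then called as higher in Naive and 2848 as lower. Leaving out single libraries kept all 6 calls. It added Ier3 without Naive library 1 (0.62), 2 (0.64) or 4 (0.65) or Naive-Mac library 1 (0.71) or 4 (0.67), Ier2 without Naive library 3 (0.62) or 5 (0.60) or Naive-Mac library 3 (0.59), and Junb without Naive-Mac library 4 (0.60). Under correction for length and GC content 9 members were called, all but Dusp1: the difference was then 1.203 for Egr1, 1.80 for Fosb, 1.42 for Ier3, 0.96 for Ier2 and 0.67 for Junb. Over all genes that correction called 1828 as higher in Naive and 1733 as lower. Of the 9 neutrophil markers 2 were called between these groups, both lower in Naive (22.2%, background 59.7%). The summed FPKM of all 9 overlapped between the groups. Naive-Mac library 2, which had the lowest neutrophil sum of all 20 libraries (58.6 FPKM), was the highest of its group in Fos (243 FPKM) and Egr1 (64.3) and the lowest in Atf3 (54.3) and Ier3 (55.2).

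The depleted groups, Resist-Mac vs. Naive-Mac, differed in 9 of the 10 genes, all higher in Resist-Mac, against 46.2% of the 9760 genes tested. Klf4 was 2.68 higher (SE 0.14), Fosb 2.50 (SE 0.12), Egr1 2.29 (SE 0.20), Fos 1.80 (SE 0.23), Atf3 1.80 (SE 0.28) and Jun 1.14 (SE 0.17), with limma adjusted p from 3.69e-08 for Fosb to 0.000117 for Atf3. Ier2 (0.94), Junb (0.81) and Ier3 (0.80) were called as well, and Dusp1 was not (-0.071, from -0.41 to 0.27). Groups did not overlap for 8 of the 10, as for 47.8% of all genes. Median-ratio scaling, which moved the all-gene median from 0.34 to -0.0096 and the share of higher among called genes from 80.5 to 51.8% (50.3% under quantile normalization and 48.4% under correction for length and GC content), kept the 6 larger calls and lost those of Junb (0.39), Ier2 (0.52) and Ier3 (0.39). Correction for length and GC content lost that of Junb (0.52), and took Egr1 to 1.30 and Jun to 0.60. Dusp1 was lower under median-ratio scaling (-0.49, adjusted p = 0.00691) and higher under quantile normalization (0.42, adjusted p = 0.0791).

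The 2 depletion comparisons were set against each other in one fit of all 20 libraries. The difference between them, (Resist vs. Resist-Mac) minus (Naive vs. Naive-Mac), was below 0 for all 10 genes and called for 8, against 40.7% of the 9876 genes tested, with a median of -1.08 over the 10 and -0.28 over all genes. It was -2.34 for Atf3 (SE 0.36, adjusted p = 1.86e-05), -2.26 for Klf4 (SE 0.29, adjusted p = 2.11e-06), -1.81 for Egr1 (SE 0.28, adjusted p = 1.55e-05) and -1.73 for Fosb (SE 0.27, adjusted p = 2.01e-05). For Fos it was -0.68 with a 95% interval from -1.74 to 0.37 (adjusted p = 0.270), and for Dusp1 -0.079 (from -0.50 to 0.34). Batches 1, 2 and 3 all enter this difference, and it cannot be told apart from them.

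**Figure D2:**
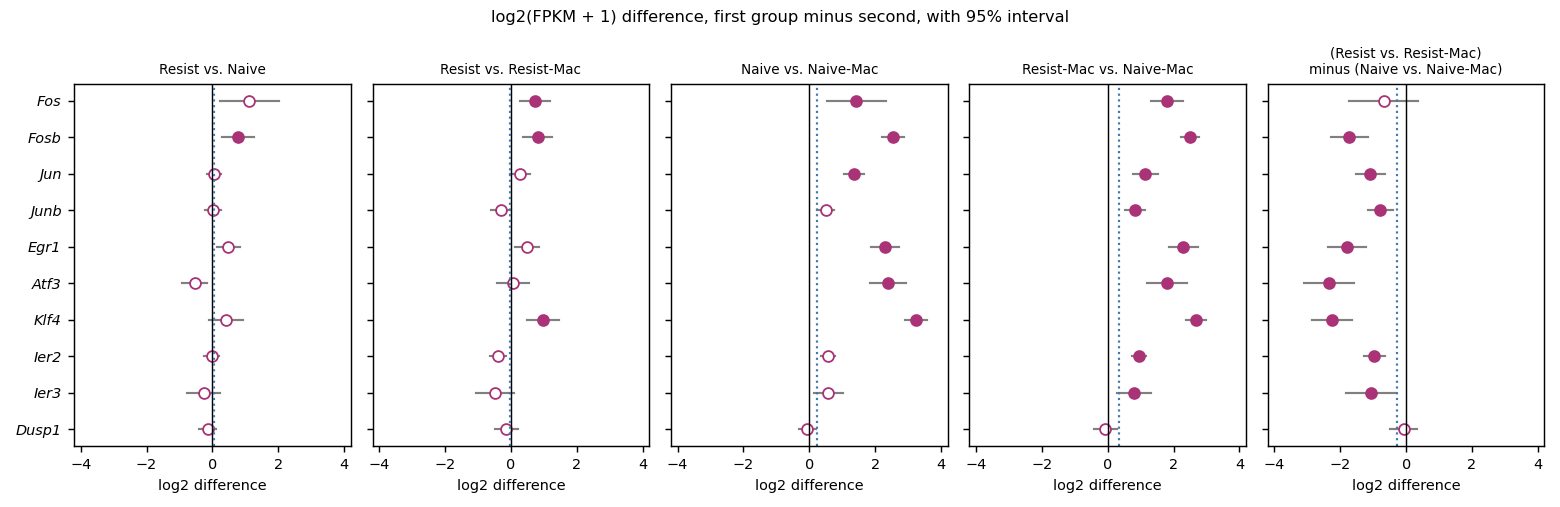
Difference in log2(FPKM + 1) between groups, first minus second, for the 10 genes in the 4 comparisons and in the difference between the depletion comparisons, with 95% intervals. Filled points were called, and the dotted line is the median of all genes tested: the points sit around it in Resist vs. Naive (0.041 against 0.033), and in both comparisons with Naive-Mac 9 of the 10 lie to its right, Dusp1 being the exception.

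How far the genes move together was read within groups, after each group's mean was taken out, which removes the means of the labelled treatments and batches. It leaves differences inside a group. The column headers of 9 depleted libraries carry numeric codes that the labels do not explain, and 3 pairs share one: Resist-Mac libraries 2 and 3, Resist-Mac 4 and 5, and Naive-Mac 1 and 4. Atf3 lay 0.53 and 0.60 log2 above the group mean in Naive-Mac 1 and 4, and at -1.03, -0.059 and -0.047 in the other 3. In Resist-Mac it lay at -0.25 and -0.64 in libraries 2 and 3, and at 0.35 and 0.31 in libraries 4 and 5. Relations were therefore also computed with a term for each code, an alternative added after the data were seen, and within batch 1, whose headers carry no codes. Fos had a within-group SD of 0.64 log2, at percentile 97.3 of all genes, followed by Atf3 (0.46, percentile 94.7), Ier3 (0.45, 94.6) and Klf4 (0.36, 89.9). Egr1 (88.1) and Fosb (87.4) were also among the more variable genes, Jun (67.8), Dusp1 (64.2) and Junb (52.5) nearer the middle, and Ier2, with an SD of 0.16, at percentile 21.9. The median over all genes was 0.22. Spread was not the same in each group: the SD of Fos was 1.00 in Naive, 0.52 in Resist, 0.17 in Resist-Mac and 0.59 in Naive-Mac, and that of Jun 0.073 in Resist and 0.33 in Resist-Mac.

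Over the 45 pairs of members the median Pearson r was 0.37 (lowest -0.45, highest 0.88), and over all 48762750 pairs of genes tested it was 0.11. An r above 0.5 was found in 15 pairs (33.3%) of the members and in 14.1% of all pairs. In each of the 20 libraries behind an r, both genes were read from the same sort and at the same depth. The part of sort or depth in r was not tested. Within batch 1 alone the median over the member pairs was 0.44, and with the code terms it was 0.40.

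The pairs fell largely along 2 lines. Fos went with Egr1 (r = 0.75, rho = 0.73, 0.70 without the 2 libraries farthest out in Fos), with Fosb (0.72, rho = 0.75) and with Ier2 (0.56, rho = 0.46). Egr1 went with Ier2 (0.74, rho = 0.58) and Jun (0.63, rho = 0.51), Jun with Dusp1 (0.74, rho = 0.81), and Fosb with Klf4 (0.84, rho = 0.80). Junb, Atf3 and Ier3 formed the other line, with r = 0.88 for Junb and Ier3 (rho = 0.83), 0.75 for Atf3 and Ier3 (rho = 0.76) and 0.68 for Junb and Atf3 (rho = 0.76). Between Fos, Fosb, Jun, Egr1 and Ier2 on one side and Junb, Atf3 and Ier3 on the other, 10 of the 15 pairs were below 0, from -0.45 for Egr1 and Ier3 to 0.32 for Fosb and Junb, with a median of -0.16 (-0.19 in batch 1 and -0.14 in the depleted groups). With the code terms 9 of the 15 were below 0, with a median of -0.083, from -0.41 for Jun and Ier3 to 0.41 for Fosb and Atf3, and r was 0.80 for Junb and Ier3, 0.68 for Atf3 and Ier3, 0.58 for Junb and Atf3, 0.71 for Fos and Egr1, and 0.93 for Fosb and Klf4. Without the code terms Fosb, Klf4 and Dusp1 had r above 0 with every other member. Fosb, though placed in the first set, had r = 0.32 with Junb, 0.23 with Atf3 and 0.14 with Ier3. These sets were drawn after the correlations were seen and were given no test. For the 17 pairs that include Fos or Atf3, libraries were permuted within groups (2-sided, 100000 draws, n = 20). At an unadjusted permutation p under 0.05 for r there were 9 pairs, all with r above 0, led by Atf3 and Ier3 (permutation p = 5.00e-05 for r and 0.000200 for rho) and Fos and Egr1 (0.000140 and 0.000560). Of the 5 permuted pairs with r below 0, which were Fos with Junb, Atf3 and Ier3, and Atf3 with Egr1 and Ier2, none passed (unadjusted permutation p from 0.130 to 0.499). The most negative pair, Egr1 and Ier3, was not permuted. Its limma slope was -0.60 for Ier3 on Egr1 (unadjusted p = 0.0372, adjusted 0.496). For Egr1 on Ier3 it was -0.34 (unadjusted p = 0.0406, adjusted 0.742).

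**Figure D3:**
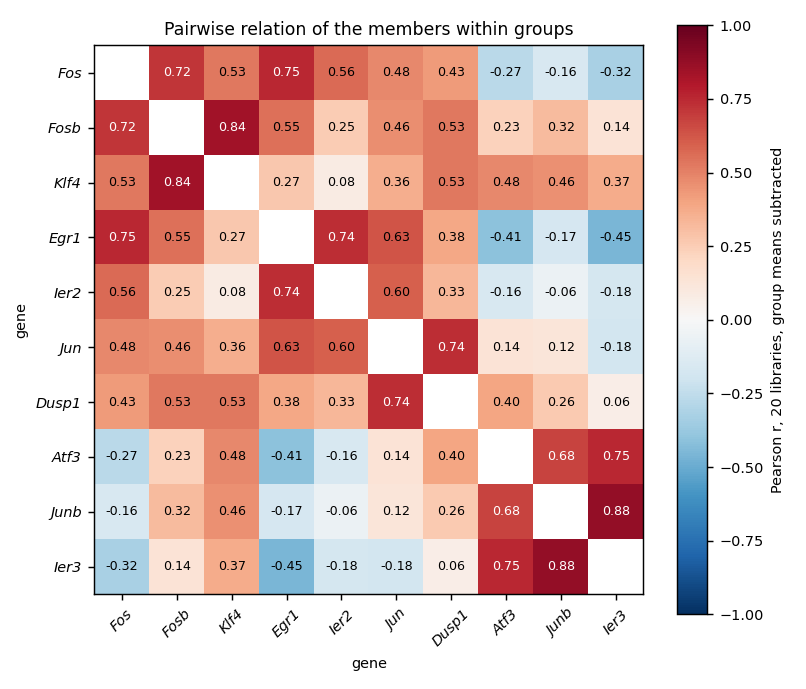
Pearson r of each pair of the 10 genes over the 20 libraries after group means were subtracted, in color and as numbers, with Atf3, Junb and Ier3 placed last. Those 3 form a block of positive r at the lower right, and their r with Fos, Fosb, Egr1, Ier2 and Jun runs from -0.45 to 0.32.

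Some libraries ran along these lines and others across them. Naive library 4 was the highest of its group in 6 members (Fos, Fosb, Jun, Egr1, Klf4 and Ier2) and the lowest in Ier3. Naive library 3 was the lowest in Fos, Jun, Egr1, Ier2 and Dusp1 and the highest in Junb, Atf3 and Ier3. In Resist, library 3 was the lowest in 7 members of both lines (Fos, Fosb, Egr1, Atf3, Ier2, Ier3 and Dusp1), and library 1 was the highest in Fosb, Junb, Atf3 and Ier3. Naive-Mac library 1 was the lowest in Fos, Jun, Egr1, Ier2 and Dusp1 and the highest in Ier3, and Naive-Mac library 4 was the highest in Fosb, Jun, Junb, Atf3 and Klf4. Resist-Mac library 1 was the highest in Junb, Ier2 and Ier3, and Resist-Mac library 4 in Jun, Atf3 and Klf4. The neutrophil sum of Naive libraries 3 and 4 was alike (193 and 176 FPKM). Over the 20 libraries its group-centered log2 had r = -0.48 with Fos, -0.43 with Fosb, -0.43 with Egr1 and -0.37 with Klf4. It had r = 0.28 with Junb, 0.48 with Atf3 and 0.33 with Ier3. Without the 2 libraries farthest out in that sum, r was -0.48 for Fosb and -0.57 for Klf4. It was then -0.36 for Fos, -0.15 for Egr1, 0.083 for Junb, -0.031 for Atf3 and 0.025 for Ier3. The part of neutrophil markers in the relations was not tested.

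The slope of every gene on Fos was then fitted across all genes, with group terms in the model. No gene of the 9875 was called (0%), and no member, by limma; at an unadjusted p under 0.05 there were 272 genes (2.75%) and 5 of the 9 other members, all with a positive slope: Egr1 (0.40 log2 per log2 of Fos, SE 0.08, unadjusted p = 0.000118), Fosb (0.37, SE 0.09), Klf4 (0.30), Jun (0.19) and Ier2 (0.14). The lowest adjusted p of any gene was 0.959, for Egr1. Junb (-0.055), Atf3 (-0.19) and Ier3 (-0.23) had slopes below 0 that did not pass.

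Each other member took the place of Fos in turn, a step added after the data were seen. On Fosb, 2 genes were called in all (0.0203%), and both belong to the immediate early genes: Klf4 (slope 0.91, SE 0.15, adjusted p = 0.0201) and Klf2 (0.84, adjusted p = 0.0201). On Klf4 the 2 genes called (0.0203%) were Klf2 (0.84, adjusted p = 0.000474) and Fosb (0.78, adjusted p = 0.0227). On Junb 19 genes were called (0.192%), Ier3 among them with a slope of 1.81 (SE 0.24, adjusted p = 0.000768), and on Ier3 16 genes (0.162%), Junb (adjusted p = 0.00776) and Atf3 (adjusted p = 0.0493) among them. On Jun 1792 genes were called (18.1%), including Dusp1 (0.71, adjusted p = 0.0144) and Egr1 (0.85, adjusted p = 0.0276), a share near that of the members (2 of 9). On Atf3 there was 1 gene (0.0101%), Dok1, and no member. On Egr1, Ier2 and Dusp1 none was called (0% each), with 981, 331 and 2499 genes at an unadjusted p under 0.05.

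The slope of Ier3 on Junb kept its call as each library was left out in turn, with values between 1.65 and 2.15 (adjusted p from 4.85e-05 to 0.0249), was 2.15 in batch 1 (adjusted p = 0.00352) and 1.57 in the depleted groups (adjusted p = 0.249), and it was 1.48 and not called under quantile normalization (adjusted p = 0.0816). That of Klf4 on Fosb was 1.01 in batch 1 (adjusted p = 0.0212) and 0.43 in the depleted groups (adjusted p = 0.507), and it lost its call without any of 8 libraries (Naive 1, 4 or 5, Resist 1, 2 or 3, Resist-Mac 2 or Naive-Mac 4), with adjusted p up to 0.194. The call of Junb on Ier3 was lost without Resist library 1, where both were far above their group (adjusted p = 0.0941), and within batch 1 alone (adjusted p = 0.0585). Atf3 on Ier3 was lost without any of 16 libraries (up to 0.199), and Dusp1 and Egr1 on Jun without Resist-Mac library 2 or Naive-Mac library 1 (up to 0.0860 and 0.173) and under median-ratio scaling (adjusted p = 0.477 for both). With the code terms the calls of Klf4 on Fosb (0.95, adjusted p = 0.00565), Fosb on Klf4 (0.90, adjusted p = 0.000457) and Egr1 on Jun (1.38, adjusted p = 0.0169) were made, and those of Ier3 on Junb (1.63, adjusted p = 0.125), Junb on Ier3 (adjusted p = 0.260), Atf3 on Ier3 (adjusted p = 0.528) and Dusp1 on Jun (adjusted p = 0.221) were not, with 11 residual degrees of freedom.

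**Figure D4:**
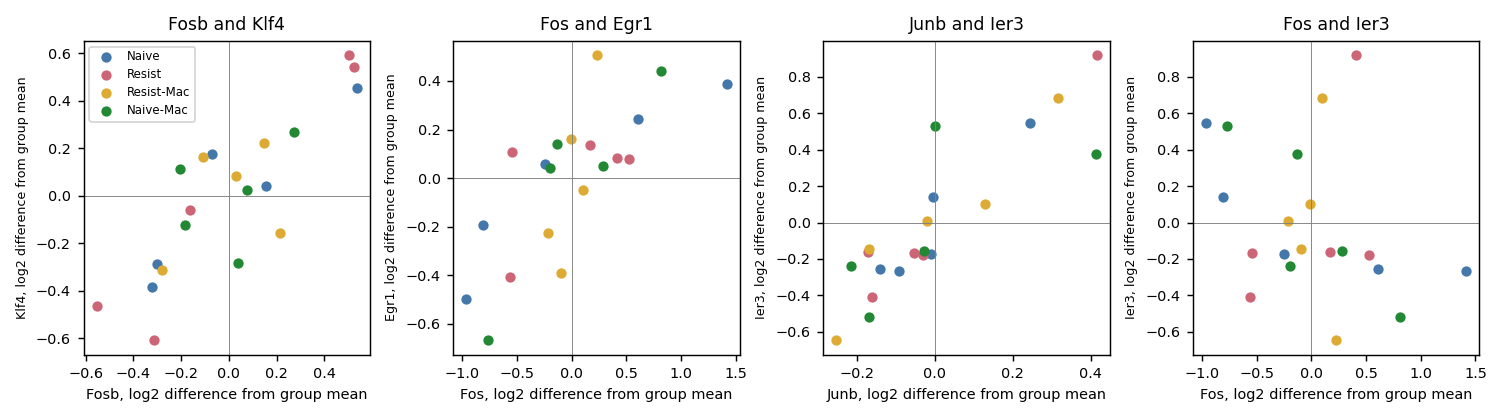
Log2 difference from the group mean of 2 genes in each of the 20 libraries, colored by group, for Fosb and Klf4, Fos and Egr1, Junb and Ier3, and Fos and Ier3. The first 3 panels rise from lower left to upper right (r of 0.84, 0.75 and 0.88), and in the fourth the 2 libraries highest in Fos lie below their group mean in Ier3 (r = -0.32).

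Of the 19 genes called on Junb, 10 are on a list of 45 other immediate early genes (41 tested): Tnfaip3 (slope 2.34, adjusted p = 0.000487), Irf1, Klf10, Nr4a1, Csrnp1, Plk3, Nfkbia, Nfkbiz, Ier5 and Fosl1, all with a positive slope. Outside that list, and named after their values were seen, were the chemokines Cxcl1 (2.43) and Cxcl2 (2.67), Bcl3 (1.35), and Rgs2, a brake on G protein signaling, with a negative slope (-1.52). Hbegf (1.11), Osgin1 (1.12), Rcan1 (1.15) and Cish (1.85) were called on Junb as well. Tnfaip3, Nfkbia, Nfkbiz, Bcl3 and the chemokines are textbook targets of NF-kB. They were picked out after the calls were seen, and a part of NF-kB was not tested. On Ier3, Cxcl1 (1.36, adjusted p = 0.00301), Cxcl2 (1.48) and 7 of the 41 (Klf10, Nfkbia, Tnfaip3, Plk3, Fosl1, Irf1 and Csrnp1) were called, again with Rgs2 below 0 (-0.72). Rcan1 (0.57) and Cldn4 (0.81) were called there too, and Map3k8 (-0.82) and Nrip1 (-0.86) with negative slopes. Of the 41, 39 had a positive slope on Junb. With each library left out in turn the number of genes called on Junb ran from 9, without Resist library 1, to 26, and the number from the list from 6 to 10. Batch 1 alone gave 9 genes, 3 of them from the list. The depleted groups alone gave none of 9759 genes, with 39 of the list at a positive slope. The share of positive slopes on Junb over all genes was not set beside these sign counts, so they cannot be read as particular to the list. On Ier3 the number of genes ran from 7, without Resist library 1, to 27, without Naive-Mac library 2, and the number from the list from 3 to 8, with 5 genes (2 of the list) in batch 1 and none in the depleted groups. With the code terms 4 of 9875 genes were called on Junb, 2 of them from the list, and none on Ier3 (431 at an unadjusted p under 0.05). On Fosb 14 were called, with 1 from the list and 1 member among them. On Klf4 49 were called, with 5 from the list and 1 member among them.

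The same wider list was then compared between groups. In Resist vs. Naive, 3 of the 41 were called (7.32%, background 6.35%): Arc, which codes for a synaptic protein, was 0.64 higher, and the AP-1 subunit Fosl2 (-0.66) and the repressor Klf10 (-0.65) were lower, and the list's median was -0.092. Resist vs. Resist-Mac again had 3 (background 21.7%), Gadd45g (0.72 higher), Cebpb (-1.14) and Cebpd (-0.81). In Naive vs. Naive-Mac, 31 of the 41 were higher in Naive and none lower, led by Arc (3.02), the AP-1 subunit Fosl1 (2.81) and the nuclear receptor Nr4a3 (2.58), with a median of 1.31 (75.6% called, background 59.7%). In Resist-Mac vs. Naive-Mac it was 29 and none, led by Arc (3.33), Tnfaip3 (2.22) and Nr4a3 (2.21), with a median of 1.18 (background 46.2%).

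Heat shock genes, which tissue digestion is also known to induce, were called in both directions. In Resist vs. Naive, 1 of 14 was called (7.14%, background 6.35%), Hspb1, which was 0.59 lower. Naive vs. Naive-Mac had 8 higher and 2 lower (71.4% called, background 59.7%): Hspa1a (2.23), Hspa1b (1.98) and Hsph1 (1.75) were higher in Naive, and Hspe1 (-1.45) and Hspa8 (-1.21) lower. Resist vs. Resist-Mac (28.6% called, background 21.7%) had 2 higher, Dnajb4 (0.91) and Hspa1b (0.61), and 2 lower, Hspa8 (-1.37) and Hspe1 (-0.96). Resist-Mac vs. Naive-Mac (50% called, background 46.2%) had 6 higher, led by Hspa1a (1.73), the co-chaperone gene Bag3 and Hspa1b (1.38), and Hspe1 lower (-0.81). Hspa1a and Hspa1b are near-identical copies whose reads may be split between them. The summed FPKM of all 14 genes ran from 7925 to 9199 in Naive, 6583 to 7873 in Resist, 8507 to 9517 in Resist-Mac and 7271 to 8130 in Naive-Mac. Within groups that sum had r = -0.26 with Fos, -0.42 with Jun, -0.50 with Ier2 and 0.33 with Atf3, given as a description over 20 libraries.

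Upstream, the list of MAP kinase and SRF pathway genes had none of 22 called in Resist vs. Naive, 3 higher and 1 lower in Resist vs. Resist-Mac (Elk4 1.06 and Braf 0.64 among the higher, and Hras -0.61), 11 higher and 1 lower in Naive vs. Naive-Mac (Braf 1.97, Elk4 1.85, Mrtfb 1.80, and Hras -1.11) and 10 higher and 1 lower in Resist-Mac vs. Naive-Mac (Mrtfa 1.71, Mrtfb 1.63, Braf 1.504, and Hras -0.63). Those shares were 0, 18.2, 54.5 and 50% against backgrounds of 6.35, 21.7, 59.7 and 46.2%. Downstream, the AP-1 target genes had 4 of 10 called in Resist vs. Naive, Timp1 (0.66) and Cd44 (0.65) higher and Hmox1 (-0.83) and Vegfa (-0.67) lower. None of the 10 was called in Resist vs. Resist-Mac by limma. Naive vs. Naive-Mac had 4 of 9 higher (Vegfa 1.91, Hbegf 1.27 and Plaur 1.18 the largest), and Resist-Mac vs. Naive-Mac 6 of 10 (Cd44 1.38, Plaur 1.23 and Hbegf 1.02 the largest), with none lower. Those shares were 40, 0, 44.4 and 60% against the same backgrounds.

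**Figure D5:**
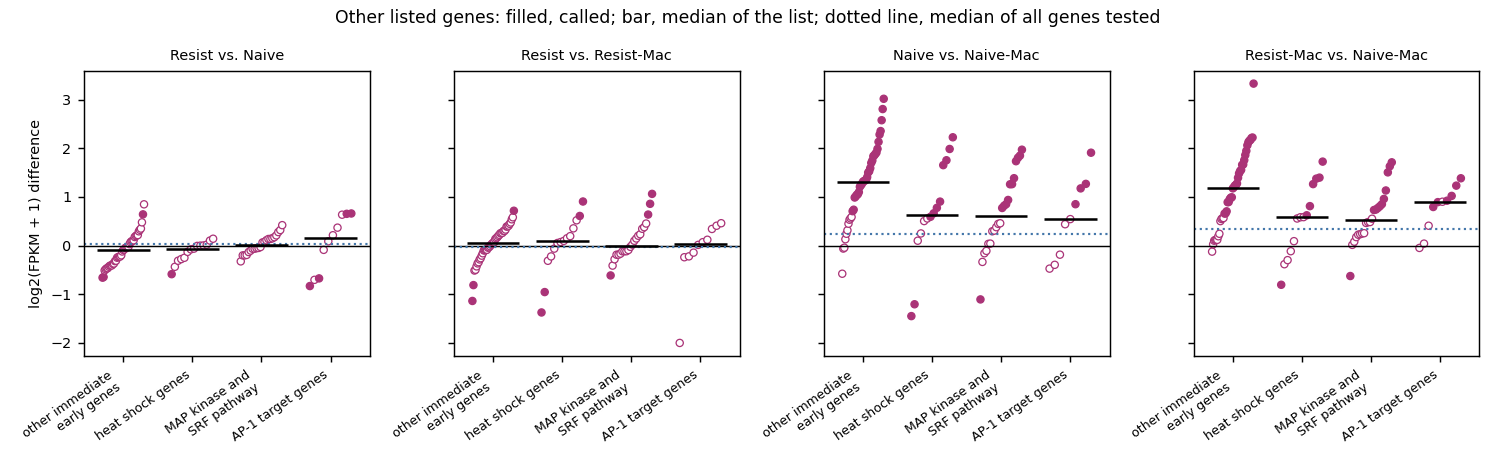
Difference in log2(FPKM + 1) of each tested gene of 4 other lists in the 4 comparisons, with filled points for genes called, a bar at the median of each list and a dotted line at the median of all genes tested. The other immediate early genes lie around the dotted line in Resist vs. Naive (median -0.092) and mostly above it in Naive vs. Naive-Mac (median 1.31).

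Of all other genes tested, the 5 whose within-group level was most like the mean of the 10 members over the 20 libraries were Klf2 (r = 0.82), Egr2 (0.76), Btg1 (0.73), Trib1 (0.70) and Paox (0.70). Klf2, Egr2, Btg1 and Trib1 are on the list of other immediate early genes, and Paox, which codes for a polyamine oxidase, is not.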

How the data were processed

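RNA of sorted tumor cells was enriched with oligo-dT and sequenced with paired ends on a BGISEQ-500. The authors deposited FPKM per gene and library in 3 tables, of which the 1 for batch 1 (Naive and Resist) was deposited as log2(FPKM + 1), which was reversed before use. The processing notes name Bowtie2 and mm9 without a role. The quantification tool and annotation are not given in the sources used here. The 752 BGI_novel genes of the batch 1 table (8.45% of its FPKM) were removed, and genes were named by Entrez identifier with RefSeq. Levels were tested as log2(FPKM + 1), a scale that understates changes of low genes, after genes averaging under 1 FPKM in the compared groups were dropped, with limma 3.58.1 (trend) in R 4.3.3. A call required a Benjamini-Hochberg adjusted p under 0.05 over all genes tested and a fold over 1.5. The study used NOISeq at the same fold. A slope within groups was the coefficient of one gene's log2 level in a limma model with group terms, called at an adjusted p under 0.05; slopes on members other than Fos, and fits with a term for each numeric code in the column headers of the depleted groups, were added after the data were seen. The fits were tested on simulated data. Each library pooled 3 mice, so p-values measure the spread between pooled libraries. Members and lists were chosen with earlier results of these data known. Named were all members, the 3 genes of each other list with the largest called change in each direction, and the 5 genes most like the member mean. Genes called in a slope fit, on the lists or outside them, were named after their values were seen. Transcript lengths came from GENCODE, promoters from RefSeq, and figures were drawn with matplotlib 3.10.9. Listed genes without a row in a table were not analysed here, and some listed genes are not reported here.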

Additional observations from a re-analysis of the deposited data

Results flagged for a closer look

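In 4 cases a library stood apart from the rest of their group of 5, as measured by Dixon's ratio of the gap to the whole range against a critical value of 0.71. Junb in Resist library 1 (847 FPKM, next 622) had a ratio of 0.795, and Ier3 in the same library (188 FPKM, next 88.5) one of 0.875. Egr1 in Resist library 3 (247 FPKM, next 347) had a ratio of 0.881, on the low side. Atf3 in Naive library 3 (811 FPKM, next 588) had a ratio of 0.761. About 1 in 20 of the 40 gene and group combinations would pass by chance.

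The depletion comparisons differed by test, (Resist vs. Resist-Mac) minus (Naive vs. Naive-Mac), in 8 members: -2.34 for Atf3, -2.26 for Klf4, -1.81 for Egr1, -1.73 for Fosb, -1.09 for Jun, -1.07 for Ier3, -0.96 for Ier2 and -0.78 for Junb on the log2 scale, with limma adjusted p from 2.11e-06 for Klf4 to 0.0167 for Ier3. Over all genes 40.7% of the 9876 tested were called in the same difference, with a median of -0.28. Batch and condition cannot be told apart in any of the 8 members.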

How the results depend on the processing

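In Resist vs. Naive the number of members called went from 1 to 0 with no filter on low values or a fold over 2, to 3 with no fold threshold and to 2 by the noise-distribution probability, and the genes called overall from 643 to 392 at a mean of 5 FPKM. In Resist vs. Resist-Mac it went from 3 to 6 under quantile normalization (member median 0.77), 0 at a fold over 2 and 5 with no fold threshold. Member medians moved to 1.10 (median-ratio) and 2.20 (quantile, 10 called) in Naive vs. Naive-Mac, and to 1.05, 1.83 and 1.19 (length and GC) in Resist-Mac vs. Naive-Mac. The median r of member pairs was 0.37 with a jackknife SE of 0.116. In place of Fos, the slopes on Fosb, Junb and Klf4 called 1 member each and those on Jun and Ier3 2 each, and on Egr1, Atf3, Ier2 and Dusp1 0, as on Fos. Signs turned in Resist vs. Naive for Junb (-0.015) under median-ratio scaling, Ier2 (0.053) and Dusp1 (0.024) under quantile normalization, and Jun (-0.066) and Junb (-0.068) under length and GC correction. They turned in Resist vs. Resist-Mac for Junb (0.37), Ier2 (0.18) and Dusp1 (0.57) under quantile normalization and Junb (0.049), Ier2 (0.016), Ier3 (0.059) and Dusp1 (0.067) under length and GC correction. Dusp1 turned in Naive vs. Naive-Mac (0.98 by quantile, 0.031 by length and GC) and Resist-Mac vs. Naive-Mac (0.42 by quantile). None of these cases but the quantile values of Junb, and of Dusp1 in 2 comparisons, had an adjusted p under 0.05. Under length and GC correction 9 members were called in Naive vs. Naive-Mac and 8 in Resist-Mac vs. Naive-Mac. The all-gene calls, higher and lower, were 1828 and 1733 in the former and 1238 and 1322 in the latter. Under quantile normalization they were 2625 and 2848 in Naive vs. Naive-Mac, and 982 and 808 in Resist vs. Resist-Mac. With terms for the header codes 0 members were called on Fos and the median r was 0.40. The causes were not tested.

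With each library left out, members called ran from 0 to 2 in Resist vs. Naive, 3 to 4 in Resist vs. Resist-Mac, 6 to 8 in Naive vs. Naive-Mac, 9 in Resist-Mac vs. Naive-Mac, 8 in the difference of depletion comparisons and 0 on Fos. Genes called overall ran from 527 to 840, 2006 to 2450, 5699 to 5990 and 4209 to 4865. Member medians ran from 0.010 to 0.083, 0.074 to 0.26, 1.18 to 1.55 and 1.32 to 1.54, and the median r from 0.29 to 0.40. The sign of a small difference turned in Resist vs. Naive for Junb (-0.074 to 0.091), Jun (-0.025 to 0.13) and Ier2 (-0.081 to 0.040), in Resist vs. Resist-Mac for Atf3 (-0.099 to 0.19), and for Dusp1 in Naive vs. Naive-Mac (-0.14 to 0.021) and Resist-Mac vs. Naive-Mac (-0.16 to 0.015).

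Replicate numbers did not pair the libraries: same-numbered libraries of the groups compared had correlations of their deviations from -0.36 to 0.36. With the replicate number as a block, members called were 1, 3, 6 and 9 (8 in the difference, 0 on Fos), genes called overall 624, 2228, 5888 and 4534, and the median r 0.42. The block left the slope of Ier3 on Junb called (1.73, adjusted p = 0.0215) and lost the other slopes between members, such as Klf4 on Fosb (adjusted p = 0.103). It left 12 genes called on Junb, 5 of them other immediate early genes, and 0 on Ier3. Without counts, depth could not be set against any value.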
